A study of Sus scrofa with 12 samples.

Results

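The genes described here are the ZNF genes, named for their zinc fingers, in smooth muscle cells cultured from pig coronary artery. They were taken as all rows of the deposited count table whose Ensembl identifier has a pig symbol of ZNF followed by a digit, with at least 10 counts in 3 or more of the 12 libraries. The rule was met by 223 of the 243 ZNF genes among 21153 rows, and 12444 genes were tested in all. The cells, primary cultures labelled as differentiated/contractile and used between passages 6 and 11, came from 3 animals per the design text. After 24 h in medium with 10% fetal calf serum they were left for 4 h without added protein (control), or received PDGF-BB at 30 ng/ml, S100A4 at 1 µg/ml, or both (PDGF-BB+S100A4), with 3 libraries numbered 1 to 3 in each of the 4 groups. The sources used here state neither sex nor age of the animals, and no label ties a replicate number to an animal. PDGF-BB is a growth factor that drives smooth muscle cells to divide and migrate, and S100A4 binds calcium and is found both inside and outside cells.

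A classical zinc finger is a short loop held by a zinc ion between a pair of cysteines and a pair of histidines, and proteins with a row of such fingers can read a row of DNA bases. Many ZNF proteins of mammals also carry a KRAB box, which binds TRIM28 and through it brings in SETDB1, heterochromatin proteins and histone deacetylases, so that the bound DNA is silenced. A common task of the KRAB members is to keep transposable elements silent. Other ZNF genes code for activators, for RNA-binding proteins, for a ribosome-associated ubiquitin ligase, or, as with ZNF185, for a LIM-domain protein of the actin cytoskeleton: the symbol is a name and not a function. Protein sequences were not used here, so no member was sorted by its KRAB box or its number of fingers, and no sequence is printed.

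Libraries held 21455021 to 32448438 counts, of which ZNF members took 0.326% to 0.364%. All 5 smooth muscle markers examined were detected, with ACTA2, smooth muscle alpha-actin, at 6550 to 17500 CPM (counts divided by the library size in units of 1e+06, scaled between libraries by TMM), although TAGLN, another defining marker, stood at only 3.21 to 7.21 CPM. The 4 libraries of replicate 2 stood apart. The summed level of 5 smooth muscle markers was 7640 to 8940 CPM there and 16900 to 21000 CPM in replicates 1 and 3. Most of this sum is ACTA2, so it does not show whether the other markers of the list moved alike. The 3 fibroblast markers summed to 864 to 1020 CPM in replicate 2 and 212 to 449 CPM in replicates 1 and 3. The 3 of 4 endothelial markers found in the table summed to 52.1 to 57.9 CPM in replicate 2 and 19.0 to 37.5 CPM in the others. KDR, 1 of the 3, held only 0 to 4 counts per library. Macrophage markers were near the floor, with PTPRC at 0 counts in all 12 libraries and CD163 at 0 or 1. Of the 5 smooth muscle markers 2 fell with PDGF-BB, 3 with S100A4 and 2 with both proteins, and none rose. SMTN, smoothelin, led them (-0.69, -0.45 and -0.83 on the log2 scale). Of 3 fibroblast markers 1 fell with PDGF-BB, 1 rose with S100A4, and 1 rose and 2 fell with both. Of all genes 24.5%, 4.28% and 28.6% fell in these 3 comparisons, and 24.3%, 6.46% and 27.5% rose. Without the block the smooth muscle markers that fell numbered 1, 0 and 1, beside 5.62%, 0.00804% and 8.75% of all genes. No fibroblast marker passed without it. The 3 pericyte markers summed to 7.31 to 8.77 CPM in replicate 2 and 1.23 to 4.14 CPM in the others. Where high, this sum is mostly RGS5 (at most 7.4 CPM), since ABCC9 and KCNJ8 reached only 1.41 and 1.09 CPM. With PDGF-BB 1 of the 3 pericyte markers fell (0 without the block). The part of these markers in the changes of ZNF members was not tested, and in bulk RNA fewer cells of a type and less RNA per cell cannot be told apart.

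Most members were detected well enough to test. The median count of a member over the libraries was 216.5 in the middle of the family and ran from 7 to 3639, and 213 members had 10 counts in all 12 libraries. All 223 passed the general filter on low counts. Just inside the rule stood ZNF467, with 4 to 14 counts per library and 10 or more in 3 of them, and ZNF653 with 4. Just outside stood ZNF555, with 2 to 12 counts and 10 or more in 2 libraries, and ZNF852 with 1. Of the 20 genes left out, 5 had no count in any library. In the text a gene "passed" when its adjusted p was under 0.05 in edgeR's quasi-likelihood test, fitted to all 12 libraries with replicate number as a block and adjusted over all 12444 genes by Benjamini-Hochberg. Values after a gene are log2 changes ± SE with n = 3 libraries per group, and each member named as risen or fallen, apart from ZNF385B, moved the same way in all 3 pairs of same-numbered libraries.

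PDGF-BB changed 91 of the 223 ZNF members, 41 higher and 50 lower. Over all genes tested 48.8% passed in this comparison, against 40.8% of members. For genes that rose the background was 24.3%, and 18.4% of members rose. For genes that fell it was 24.5%, and 22.4% of members fell. The changes were mostly small: the median log2 change of the members was -0.06 (all genes -0.02), the lower and upper quartiles of the members were -0.27 and 0.16 (all genes -0.23 and 0.19), and 8 members (3.59%) rose and 10 (4.48%) fell by more than 1.5-fold among those that passed, where the shares of all genes were 6.87% and 5.9%.

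ZNF792 (ENSSSCG00000036886, chromosome 6, 44518197 to 44537167 on Sscrofa11.1 in RefSeq) had the largest rise. Its level was 0.402, 0.509 and 0.472 CPM in control replicates 1 to 3 and 1.54, 1.24 and 1.39 CPM with PDGF-BB. The groups did not overlap, and the rise was 2.92-fold (1.55 ± 0.28, adjusted p = 0.00039), although a median of 25 counts per library stands behind these values. ZNF385D (ENSSSCG00000011208, chromosome 13, 8234734 to 9214628), of a family whose best-studied member, ZNF385A, binds RNA, went from 7.93, 8.65 and 11.08 CPM to 19.8, 22.2 and 23.6 CPM, a 2.39-fold rise (1.26 ± 0.10, adjusted p = 2.9e-07). All 3 treated libraries lay well above the highest control. ZNF316 went from 22.7, 26.6 and 28.4 CPM to 43.1, 41.4 and 45.6 CPM (0.74 ± 0.08, adjusted p = 5.5e-06), again without overlap. ZNF793 went from 3.78, 3.02 and 3.11 CPM to 4.82, 4.99 and 6.13 CPM (0.68 ± 0.12, adjusted p = 0.00042).

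The other members named among those that rose were ZNF800, which limits endocrine differentiation in the gut (0.63 ± 0.09), ZNF598, the ubiquitin ligase that senses collided ribosomes (0.63 ± 0.06), ZNF668 (0.60 ± 0.10), ZNF280B (0.59 ± 0.08), ZNF16 (0.58 ± 0.05) and ZNF865 (0.55 ± 0.07). ZNF598 showed how even these smaller changes were: it stood at 36.2, 39.5 and 41.7 CPM in control and at 60.3, 57.1 and 64.2 CPM with PDGF-BB. All 10 members named as risen also passed in the fit without the replicate block (adjusted p = 0.00072 to 0.013). ZNF668 overlaps ZNF646 in the RefSeq annotation, and since the use of strand in counting is not given in the sources used here, its count is uncertain.

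ZNF365 (ENSSSCG00000010222, chromosome 14, 65861398 to 65888341), a gene tied to genome stability, had the largest fall with PDGF-BB. Control libraries held 1.97, 3.36 and 2.97 CPM, and treated ones 1.05, 1.5 and 1.39 CPM, so each treated library was below every control. The fall was 2.12-fold (-1.09 ± 0.18, adjusted p = 0.0002), and its adjusted p was 0.061 without the block. ZNF395 (ENSSSCG00000009676, chromosome 14, 12136090 to 12184468), a factor known to be induced by low oxygen, fell 1.89-fold, from 19.0, 22.4 and 22.1 CPM to 10.8, 12.6 and 10.2 CPM (-0.92 ± 0.08, adjusted p = 4.6e-07). Here too the groups were far apart. ZNF544 went from 2.13, 1.25 and 1.65 CPM to 0.931, 0.750 and 1.19 CPM (-0.79 ± 0.22, adjusted p = 0.009), and ZNF362, a close relative of ZNF384, went from 50.6, 35.0 and 57.2 CPM to 28.9, 23.4 and 34.2 CPM (-0.71 ± 0.06, adjusted p = 4.4e-07).

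For ZNF362 the control range was wide because replicate 2 was lowest in every group, while the change within each pair was alike (-0.81, -0.58 and -0.74 in replicates 1 to 3). The remaining named members that fell were ZNF354C (-0.71 ± 0.16), ZNF81 (-0.71 ± 0.17), ZNF436 (-0.67 ± 0.08), ZNF672 (-0.66 ± 0.09), ZNF782 (-0.66 ± 0.25) and ZNF652 (-0.64 ± 0.12), a repressor that works with the corepressor CBFA2T3. Of the 10 that fell, ZNF365, ZNF544, ZNF362, ZNF354C and ZNF782 did not pass without the block (adjusted p = 0.061, 0.071, 0.072, 0.091 and 0.14).

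Without the block 32 members passed, 21 higher and 11 lower, and all 32 also passed with it in the same direction. The background without the block was 14.7%, against 14.3% of members, with 9.09% of genes higher and 5.62% lower. Leaving out replicate 1 of all groups gave 23 members lower, and leaving out replicate 3 gave 33. ZNF544 did not pass without replicate 1 (adjusted p = 0.12) or without control replicate 1 (0.076), nor ZNF81 without replicate 1 (0.052). ZNF782 did not pass without replicate 2 (0.092), replicate 3 (0.27), control replicate 2 (0.15), control replicate 3 (0.11) or PDGF-BB replicate 3 (0.23), or with DESeq2 (0.12).

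**Figure D1:**
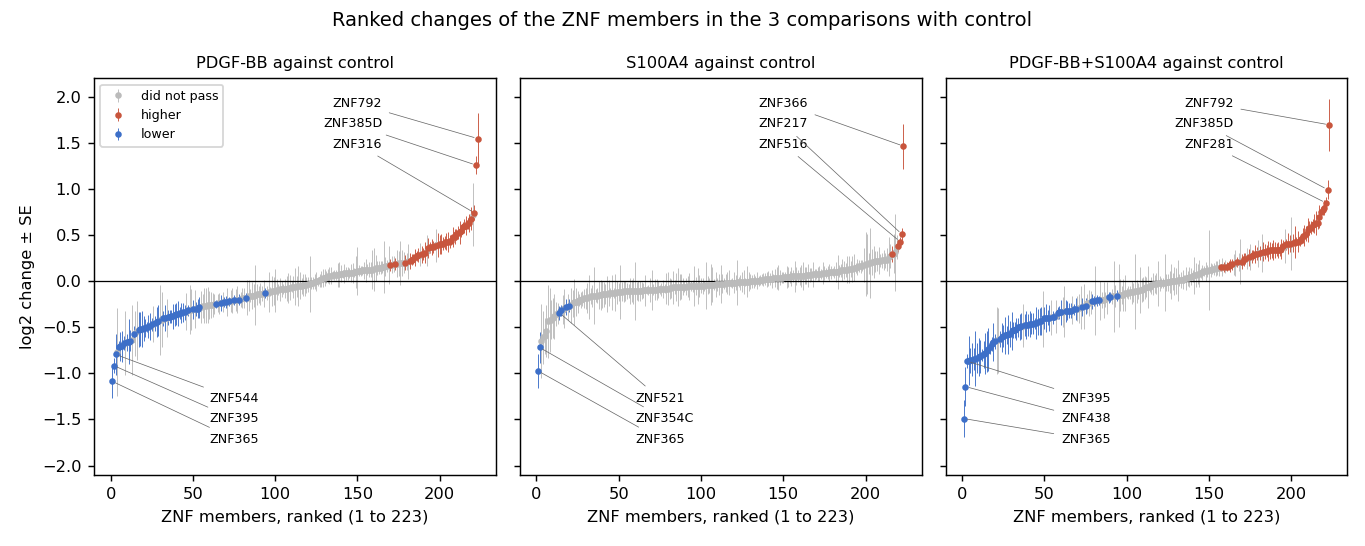
Log2 change ± SE of the 223 ZNF members, ranked from lowest to highest, in the 3 comparisons with control (red, higher and passed; blue, lower and passed; grey, did not pass; the 3 outermost named on each side have a mean of at least 0 log2 CPM). Only ZNF366, ZNF365 and ZNF354C pass beyond 1.5-fold with S100A4 alone, whereas with PDGF-BB or both proteins both tails hold many members that passed.

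The members whose proteins work on RNA, ribosomes or the spindle were looked at as a list of 13 symbols, of which 10 were tested. With PDGF-BB 4 of them rose and 2 fell (3 and 1 without the block), with a median of 0.09 (all genes -0.02), beside 24.3% and 24.5% of all genes. Beside ZNF385D and ZNF598, ZNF326, a part of the DBIRD complex that links transcript elongation to splicing, rose (0.38 ± 0.04, adjusted p = 5.7e-06). ZNF622, which acts in the last steps of making the large ribosomal subunit, rose by 0.19 ± 0.06 (adjusted p = 0.027, and 0.64 without the block). ZNF346, which binds double-stranded RNA, fell (-0.45 ± 0.08, adjusted p = 0.00042, and 0.062 without the block). ZNF638, a nuclear protein that helps to silence DNA of incoming retroviruses, fell by less (-0.31 ± 0.06, adjusted p = 0.00068). The change of ZNF207, a protein of the mitotic spindle, was 0.07 ± 0.04 and did not pass (adjusted p = 0.21).

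Of 26 regulators of transcription chosen as having roles described outside the KRAB system, 23 were tested. With PDGF-BB 4 rose and 10 fell, with a median of -0.20 (all genes -0.02), beside 24.3% and 24.5% of all genes. Without the block 2 rose and 3 fell. ZNF281, a regulator tied to pluripotency and to the epithelial-mesenchymal transition, rose from 38.6, 46.2 and 36.5 CPM to 51.0, 66.8 and 54.8 CPM (0.51 ± 0.06, adjusted p = 1.3e-05). The gain was present in each pair, and replicate 2 was highest in both groups. ZNF703, a corepressor of the NET family, rose (0.43 ± 0.07, adjusted p = 0.00031, and 0.059 without the block), while its relative ZNF503 fell (-0.39 ± 0.08, adjusted p = 0.0011, and 0.32 without the block). ZNF335, part of a histone methyltransferase complex, rose by 0.37 ± 0.06 (adjusted p = 0.00024).

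ZNF516 (ENSSSCG00000004859, chromosome 1, 147987660 to 148100788), which drives thermogenic genes in brown fat, fell with PDGF-BB. It stood at 32.8, 51.4 and 56.8 CPM in control replicates 1 to 3 and at 25.1, 32.8 and 41.8 CPM with PDGF-BB (-0.50 ± 0.06, adjusted p = 8.2e-06). The ranges overlapped although every pair fell, and its adjusted p without the block was 0.27. ZNF827, which brings the NuRD complex to telomeres, fell by 0.47 on the log2 scale (SE 0.07, adjusted p = 7.4e-05). ZNF521, a regulator of mesenchymal and blood progenitors, also fell (-0.38 ± 0.07, adjusted p = 0.00061, and 0.70 without the block). Several regulators showed little change that could be measured: the log2 differences were 0.09 ± 0.05 for ZNF143, 0.01 ± 0.07 for ZNF148 and 0.00 ± 0.05 for ZNF410, which did not pass (adjusted p = 0.21, 0.92 and 0.99).

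S100A4 alone changed 11 of the 223 members, 5 higher and 6 lower. The background in this comparison was 10.7%, against 4.93% of members. For genes that rose it was 6.46% (members 2.24%), and for genes that fell 4.28% (members 2.69%). The 5 members that rose were ZNF366, ZNF217, ZNF516, ZNF281 and ZNF236, and the 6 that fell were ZNF365, ZNF354C, ZNF521, ZNF362, ZNF512 and ZNF827. The members' median log2 change was -0.03 (all genes -0.02).

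ZNF366 (ENSSSCG00000016976, chromosome 16, 48708604 to 49048767), known as DC-SCRIPT and as a coregulator of nuclear receptors in dendritic cells, changed most. Control libraries held 1.17, 0.848 and 0.613 CPM, PDGF-BB libraries 1.34, 0.717 and 0.967 CPM, S100A4 libraries 2.49, 2.4 and 2.48 CPM, and libraries with both 0.914, 1.11 and 1.51 CPM. The 3 S100A4 libraries lay close together and above the other 9. The rise over control was 2.76-fold (1.47 ± 0.25, adjusted p = 0.0013, and 0.084 without the block), from a median of 29.5 counts per library. In RefSeq ZNF366 overlaps TNPO1, whose own change with S100A4 was 0.03 ± 0.05 and did not pass (adjusted p = 0.761), and the share of reads from each gene in the overlap was not tested.

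The rise of ZNF217 (ENSSSCG00000007484, chromosome 17, 54605939 to 54648868), an oncogene product found in CtBP and CoREST repressor complexes, was 1.42-fold. It went from 18.4, 22.3 and 14.8 CPM in control to 26.9, 32.1 and 20.2 CPM with S100A4 (0.51 ± 0.07, adjusted p = 0.0002). The order of the replicates was the same in both groups, and their ranges overlapped, with S100A4 replicate 3 below control replicate 2. ZNF516 went to 48.9, 65.5 and 74.0 CPM with S100A4 (0.43 ± 0.06, adjusted p = 0.00015), and so stood above control with S100A4 and below it with PDGF-BB. ZNF281 (ENSSSCG00000010911) went to 47.7, 62.5 and 47.9 CPM (0.38 ± 0.06, adjusted p = 0.0012), and ZNF236 from 12.6, 15.4 and 13.6 CPM to 16, 16.9 and 18.1 CPM (0.29 ± 0.08, adjusted p = 0.040).

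Among members that fell with S100A4, ZNF365 went to 1.07, 1.43 and 1.76 CPM (-0.97 ± 0.18, adjusted p = 0.0032), with each S100A4 library below every control. ZNF354C went from 3.26, 2.44 and 3.11 CPM to 2.09, 1.16 and 2.14 CPM (-0.72 ± 0.16, adjusted p = 0.011), also without overlap. ZNF521 went from 18.4, 30.3 and 13.0 CPM to 13.4, 24.4 and 10.9 CPM (-0.34 ± 0.07, adjusted p = 0.0078), where the pairs fell together but the groups overlapped widely. ZNF362 went to 37.6, 28.9 and 48.3 CPM (-0.32 ± 0.06, adjusted p = 0.0032). ZNF512 (-0.28 ± 0.08, adjusted p = 0.045) and ZNF827 (-0.27 ± 0.07, adjusted p = 0.024) completed the 6. Of the 23 transcription regulators tested 3 rose and 3 fell, beside 6.46% and 4.28% of all genes. A mean over 4 log2 CPM was held by 8 of the 11 members that passed, and 14.1% of all genes in that range passed. Of the 10 RNA and ribosome members 0 passed in edgeR. An unadjusted p under 0.05 was held by 4 (ZNF598, ZNF622, ZNF346 and ZNF326), beside 13.5% of all members and 23.3% of all genes. The smallest adjusted p was 0.094, for ZNF598 (0.17 ± 0.06). With only the control and S100A4 groups in the fit, ZNF598 and ZNF622 passed (adjusted p = 0.03 and 0.048).

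Without the replicate block no member passed with S100A4 in edgeR. An unadjusted p under 0.05 was held by 10 members, no more than that threshold gives on average when nothing changes. The share of all genes at that level without the block is not given here. The adjusted p-values of the 11 then ranged from 0.084 to 1. The background without the block was 0.563% (0.554% higher and 0.00804% lower). Without replicate 1, replicate 2 or S100A4 replicate 2 the number of members lower was 2, and without replicate 3 it was 3. ZNF366, ZNF217, ZNF516 and ZNF281 passed with each replicate number and each library left out. ZNF365 did not pass without replicate 2 (0.054), nor ZNF362 without replicate 1 (0.10). ZNF354C did not pass without replicates 1, 2 or 3 (0.092, 0.089 and 0.064) or S100A4 replicate 2 (0.082). ZNF521 was lost without replicate 1 (0.13), control replicate 1 (0.052) or S100A4 replicate 2 (0.061). ZNF827 was lost without replicates 1, 2 or 3 (0.10, 0.18 and 0.073), control replicate 2 (0.14) or any S100A4 library (0.052 to 0.15). ZNF236 and ZNF512 were each lost on leaving out most single libraries, and with DESeq2 (0.062 and 0.082). ZNF236 did not pass with upper-quartile scaling (0.052), nor ZNF512 with limma-voom (0.053).

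**Figure D2:**
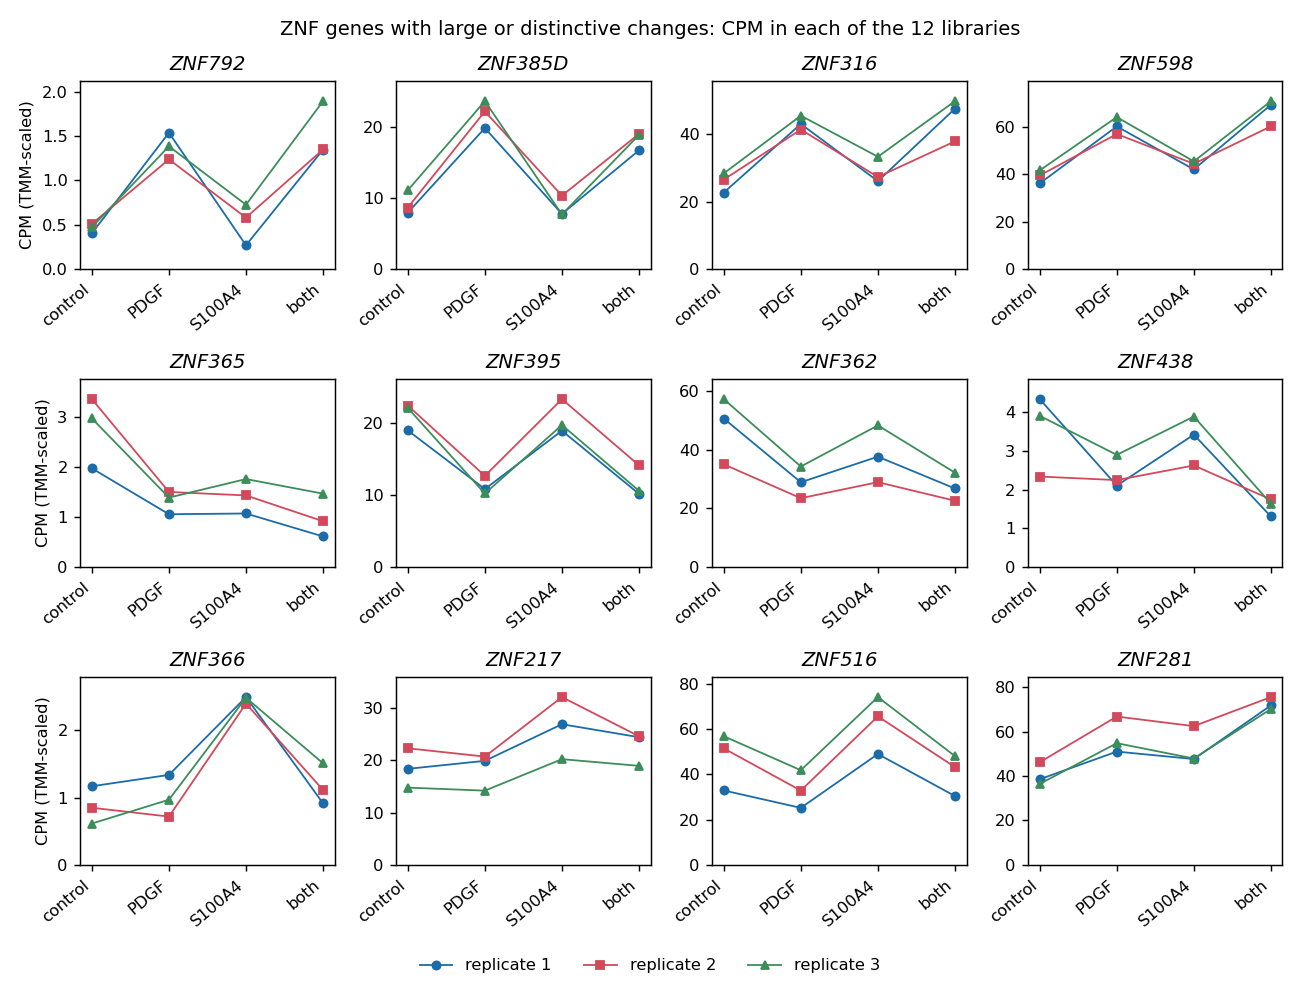
TMM-scaled CPM (vertical axis, from 0) of 12 ZNF members in the 4 groups, with lines joining libraries of the same replicate number. ZNF792, ZNF385D, ZNF316 and ZNF598 are higher in all libraries with PDGF-BB, ZNF366 stands at 2.4 to 2.49 CPM in S100A4 alone, and ZNF516 moves in opposite directions with the 2 proteins.

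With both proteins 124 of 223 members differed from control, 55 higher and 69 lower. The background was 56.1%, against 55.6% of members. For genes that rose the background was 27.5% (members 24.7%), and for genes that fell 28.6% (members 30.9%). Among those that passed, 11 members (4.93%) rose and 24 (10.8%) fell by more than 1.5-fold, while over all genes the shares were 8.94% and 8.14%. The median log2 change was -0.07 (all genes -0.03). This comparison uses the same control libraries as the comparisons above, so the values are set side by side and their likeness is not a separate result. Under upper-quartile scaling 33.3% of members that passed were higher (41 and 82 lower) in place of 44.4%.

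ZNF792 (1.70 ± 0.28) and ZNF385D (0.99 ± 0.11) again had the largest rises, at 1.35, 1.35 and 1.9 CPM and at 16.7, 19.0 and 18.9 CPM. ZNF281 stood at 71.8, 75.6 and 70.2 CPM with both proteins, above every library of the other 3 groups. Its rise over control was 1.8-fold (0.85 ± 0.06, adjusted p = 6.1e-08), beside 0.51 ± 0.06 with PDGF-BB and 0.38 ± 0.06 with S100A4. ZNF316 (0.80 ± 0.08), ZNF598 (0.77 ± 0.06) and ZNF16 (0.75 ± 0.05) followed. ZNF274, which brings SETDB1 to the ends of zinc finger genes themselves, rose by 0.70 ± 0.13 (adjusted p = 0.00031) and by 0.53 ± 0.12 with PDGF-BB alone (adjusted p = 0.0029). ZNF7 (0.64 ± 0.07), ZNF793 (0.63 ± 0.13) and ZNF668 (0.63 ± 0.10) completed the 10 named as risen, all of which passed without the block too (adjusted p = 0.00013 to 0.013).

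ZNF365 fell most, to 0.609, 0.913 and 1.47 CPM, 2.81-fold below control (-1.49 ± 0.20, adjusted p = 2.1e-05). ZNF438 went from 4.35, 2.34 and 3.91 CPM in control to 1.31, 1.75 and 1.64 CPM with both (-1.14 ± 0.21, adjusted p = 0.00037). The fall was smallest in replicate 2, where the control value was lowest, and the change with PDGF-BB alone was -0.52 ± 0.19. ZNF438 overlaps ZEB1 in RefSeq, and ZEB1 fell by less (-0.20 ± 0.04, adjusted p = 0.00112). ZNF395 (-0.87 ± 0.08) stood at 10.1, 14.1 and 10.6 CPM, within 1 SE of its change with PDGF-BB alone. ZNF782 (-0.86 ± 0.26), ZNF84 (-0.86 ± 0.13), ZNF81 (-0.85 ± 0.17), ZNF652 (-0.84 ± 0.12), ZNF354C (-0.83 ± 0.17), ZNF185 (-0.82 ± 0.21) and ZNF713 (-0.81 ± 0.18) were the other named members that fell. Of these 10, ZNF185 did not pass without the block (adjusted p = 0.098) or without replicate 2 (0.063).

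Among the RNA and ribosome members 5 of 10 rose and 3 fell with both proteins (3 and 2 without the block), with a median of 0.07, beside 27.5% and 28.6% of all genes. ZNF326 (0.46 ± 0.04) rose and ZNF638 (-0.46 ± 0.06) and ZNF346 (-0.63 ± 0.09) fell, as did ZNF385B (-0.84 ± 0.30, adjusted p = 0.028, and 0.80 without the block), which was lower in 2 of 3 pairs and whose level is mostly that of replicate 2. ZNF622 (0.34 ± 0.06, adjusted p = 0.00042) and ZNF207 (0.15 ± 0.04, adjusted p = 0.0063) rose with the block and not without it (0.28 and 0.18). Of the 23 transcription regulators 4 rose and 12 fell, with a median of -0.17 (all genes -0.03), beside 27.5% and 28.6% of all genes. Without the block 3 rose and 5 fell. ZNF827 went from 33.2, 35.3 and 32.5 CPM in control to 22.5, 18.9 and 20.3 CPM (-0.71 ± 0.07, adjusted p = 1.3e-06), with no overlap. ZNF362 fell to 26.8, 22.6 and 32.2 CPM (-0.80 ± 0.06, adjusted p = 1.1e-07).

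Without the block 56 members passed, 27 higher and 29 lower, all of them also passing with it in the same direction, against a background of 22% (13.2% higher and 8.75% lower). Leaving out replicate 1 gave 35 higher and 38 lower, and leaving out replicate 3 gave 41 lower. ZNF713 did not pass without replicate 1 (adjusted p = 0.060). ZNF782 did not pass without replicate 2 (0.12), replicate 3 (0.052), control replicate 2 (0.056) or PDGF-BB+S100A4 replicate 2 (0.077).

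**Figure D3:**
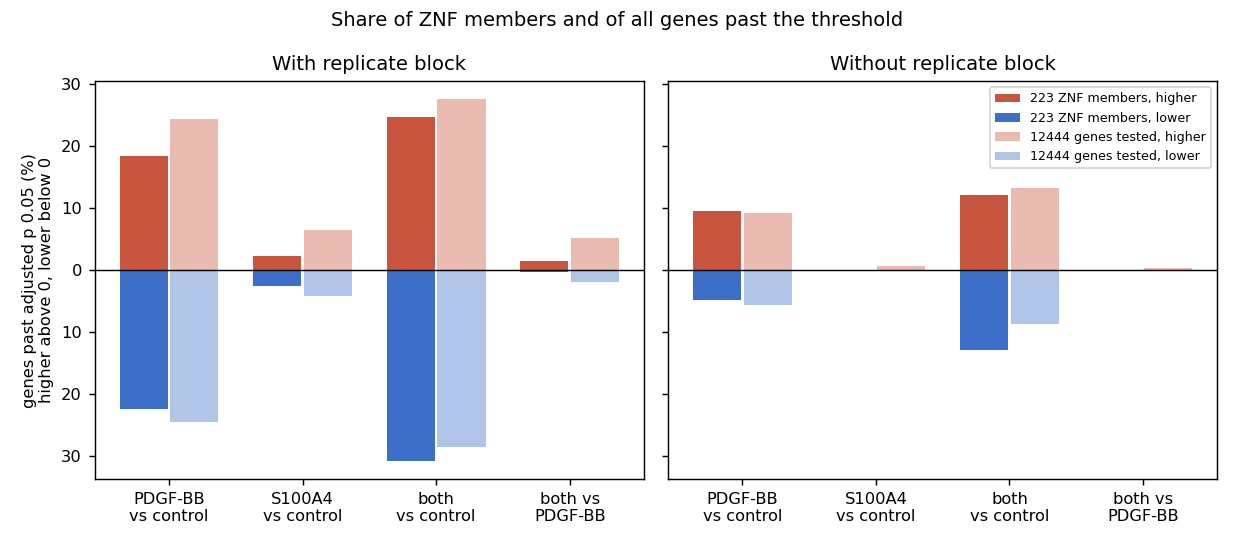
Percent of the 223 ZNF members (dark bars) and of the 12444 genes tested (light bars) that passed, higher plotted above 0 and lower below it, in 4 comparisons, with the replicate block (left) and without it (right). Member bars are lower than those of all genes for S100A4 alone (2.24% and 2.69% against 6.46% and 4.28%) and near them for both proteins against control.

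To ask what S100A4 did in cells that also received PDGF-BB, the combination was compared with PDGF-BB alone. Its groups are not those of S100A4 against control, but both comparisons come from the same fit to all 12 libraries. They share its block terms and its estimate of the spread, so their calls are not separate results. Of 223 members 4 passed, 3 higher and 1 lower, where 7.14% of all genes (5.11% higher and 2.03% lower) and 1.79% of members passed. ZNF281 (0.34 ± 0.06, adjusted p = 0.0027), ZNF217 (0.32 ± 0.07, adjusted p = 0.011) and ZNF516 (0.29 ± 0.06, adjusted p = 0.0068) rose, and ZNF521 fell (-0.30 ± 0.08, adjusted p = 0.029). In CPM, ZNF217 went from 19.9, 20.7 and 14.2 with PDGF-BB to 24.4, 24.6 and 18.9 with both, and ZNF516 from 25.1, 32.8 and 41.8 to 30.4, 43.1 and 48.0. ZNF521 went from 12.8, 24.7 and 10.2 to 10.1, 18.7 and 9.39. The members with the next smallest p among those lower, ZNF827 (-0.25 ± 0.07, adjusted p = 0.055) and ZNF664 (-0.14 ± 0.04, adjusted p = 0.056), did not pass.

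These 4 members had all passed with S100A4 alone in the same direction: the shared genes were 36.4% of the 11 and 100% of the 4, and over all genes the corresponding shares were 41.5% of 1336 and 62.5% of 888. The 3 members that rose passed with DESeq2 and limma-voom also, while ZNF521 did not with DESeq2 (adjusted p = 0.057). Without the block 0 passed in edgeR (adjusted p of the 4 between 0.92 and 1), against a background of 0.273%. There 10 members had an unadjusted p under 0.05, no more than that threshold gives on average when nothing changes. The counts were sensitive to single libraries. Without replicate 1 or replicate 3 of all groups none passed, and without replicate 2 there were 5 higher and 8 lower. Without PDGF-BB+S100A4 replicate 2 there were 8 higher and 8 lower, and without PDGF-BB replicate 2 there was 1 higher and 0 lower. The number lower was 0 without PDGF-BB replicates 1 or 3, and 2 without control replicates 1 or 2 or PDGF-BB+S100A4 replicate 1. ZNF281 passed with each single library left out, and ZNF516 failed only without PDGF-BB replicate 2 (0.052). Under upper-quartile scaling 3 members were lower, so that 50% of those past the threshold were higher in place of 75%.

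**Figure D4:**
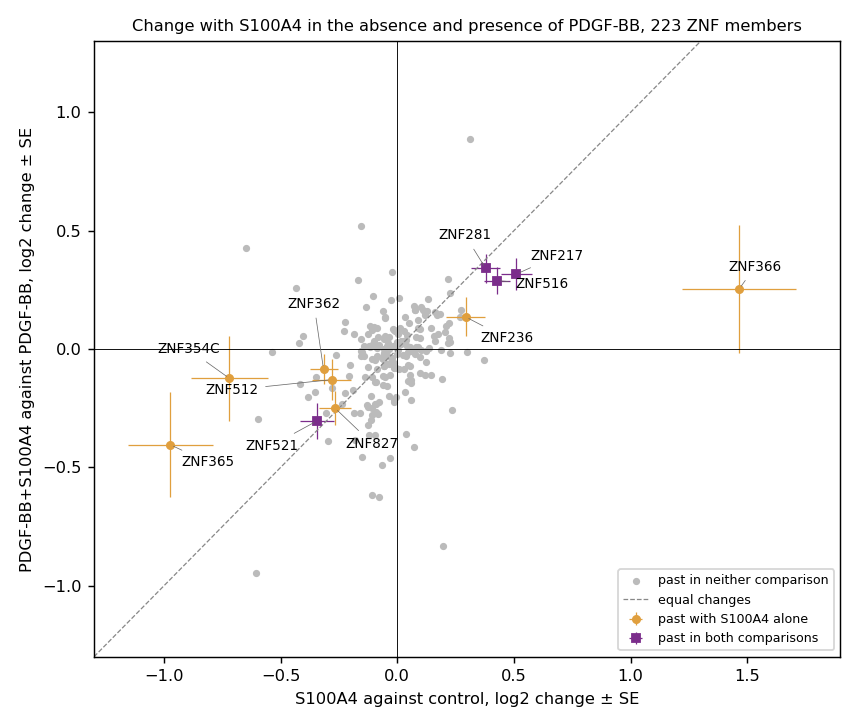
Log2 change of each of the 223 ZNF members with S100A4 alone (horizontal axis) and with S100A4 in the presence of PDGF-BB (vertical axis), with SE bars for the members that passed and a dashed line of equal changes. ZNF281, ZNF217, ZNF516 and ZNF521 passed in both (squares), and ZNF366 lies at 1.47 on one axis and at 0.25 on the other.

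The interaction asks whether the S100A4 change differed in the presence of PDGF-BB. No member passed it in edgeR, DESeq2 or limma-voom, and 8 of 223 (3.59%) had an unadjusted p under 0.05 in edgeR. Over all genes 0.113% passed (0.0161% higher and 0.0964% lower) and 9.51% had an unadjusted p under 0.05. The smallest p belonged to ZNF366, whose S100A4 change was 1.47 ± 0.25 alone and 0.25 ± 0.27 with PDGF-BB (interaction -1.21 ± 0.37, adjusted p = 0.31 by edgeR). The difference was below 0 in all 3 replicates. ZNF280C (-0.49 ± 0.17, adjusted p = 0.41) and ZNF793 (-0.42 ± 0.17, adjusted p = 0.48) were next among the negative values, and ZNF362 (0.23 ± 0.09, adjusted p = 0.45), ZNF354C (0.59 ± 0.24, adjusted p = 0.48) and ZNF513 (0.19 ± 0.08, adjusted p = 0.48) among the positive ones. None of these passed.

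Partners of KRAB proteins were read from a list of 27 symbols, of which 22 were tested. TRIM28, the hub that KRAB boxes bind, had log2 changes of 0.09 ± 0.04 with PDGF-BB, -0.09 ± 0.04 with S100A4 and 0.06 ± 0.04 with both, none of which passed (adjusted p = 0.078, 0.17 and 0.20). With PDGF-BB 7 partners rose and 6 fell (1 and 1 without the block), beside 24.3% and 24.5% of all genes, and the median was 0.00. Members of the NuRD deacetylase complex were among those that rose: GATAD2A (0.47 ± 0.05), MTA2 (0.34 ± 0.04), HDAC2 (0.28 ± 0.04), HDAC1 (0.23 ± 0.05) and CHD4 (0.23 ± 0.04). Its members CHD3 (-0.21 ± 0.04) and GATAD2B (-0.19 ± 0.06) fell. The histone methyltransferase gene SETDB1 (-0.24 ± 0.06) and its partner ATF7IP (-0.24 ± 0.06) fell as well, as did MORC2 (-0.40 ± 0.05) and PPHLN1 (-0.17 ± 0.05) of the HUSH silencing pathway, while its chromatin reader MPHOSPH8 rose (0.21 ± 0.05). With S100A4 1 of the 22 rose, HDAC1 (0.34 ± 0.05, adjusted p = 0.00028), and 1 fell, MORC2 (-0.21 ± 0.05, adjusted p = 0.024). Of all genes 6.46% rose and 4.28% fell in that comparison, and neither partner passed without the block. HDAC1 also rose when S100A4 was added to PDGF-BB (0.31 ± 0.05, adjusted p = 0.00072, and 0.39 without the block). It was the only 1 of the 22 to pass there, where 5.11% of all genes rose. With both proteins 7 of 22 rose and 7 fell (4 and 3 without the block), beside 27.5% and 28.6% of all genes.

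Other zinc finger families were counted the same way. With PDGF-BB 5 of 31 ZBTB genes rose and 9 fell, 4 of 15 ZFP genes rose and 3 fell, 0 of 8 ZSCAN genes rose and 2 fell, and 0 of 6 ZKSCAN genes rose and 1 fell, beside 24.3% and 24.5% of all genes. Without the block the numbers higher and lower were 2 and 1 for ZBTB, 2 and 1 for ZFP, and 0 and 0 for ZSCAN and ZKSCAN. With S100A4 the numbers higher and lower were 2 and 2 for ZBTB, 2 and 0 for ZFP, 1 and 1 for ZSCAN and 0 and 0 for ZKSCAN, beside 6.46% and 4.28% of all genes, and without the block only 1 ZBTB gene passed, higher. Medians with both proteins were -0.02, 0.04, -0.24 and -0.10. No difference between these families and the ZNF members was tested.

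ZNF genes often lie side by side in the genome. For 193 members a single RefSeq gene with the same symbol gave a position on Sscrofa11.1, and 56 of them lie on chromosome 6 and 27 on chromosome 3. Taking neighbours whose starts are at most 500 kb apart, 79 members fell into 16 runs of 3 or more. In these runs 0 members passed with S100A4, and 9 rose and 14 fell with PDGF-BB (11.4% and 17.7%). Of the 114 members outside runs 5 rose and 5 fell with S100A4 (4.39% and 4.39%), beside 6.46% and 4.28% of all genes. With PDGF-BB 26 members outside runs rose and 30 fell (22.8% and 26.3%), where 24.3% and 24.5% of all genes rose and fell. Members in runs also had fewer counts: the median of their mean levels was 2.75 log2 CPM against 3.83 outside, and its part in these shares was not tested.

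The largest run holds 10 members on chromosome 6 between 45520885 and 46468679: ZNF146, ZNF565, ZNF567, ZNF382, ZNF529, ZNF260, ZNF566, ZNF383, ZNF527 and ZNF570. With both proteins 6 of the 10 fell and none rose, beside 28.6% and 27.5% of all genes. Those that fell were ZNF565 (-0.59), ZNF529 (-0.58), ZNF567 (-0.49), ZNF527 (-0.47), ZNF382 (-0.44) and ZNF260 (-0.40), while ZNF146 (0.14), ZNF566 (0.30), ZNF383 (-0.08) and ZNF570 (-0.23) did not pass. With PDGF-BB alone ZNF260 and ZNF527 fell (-0.28 and -0.49) and the other 8 did not pass, where 24.5% of all genes fell. Without the block none of the 10 passed in either comparison, the adjusted p of the 6 being 0.065 to 0.29 with both proteins. Neighbours with like sequences can share reads, and how the authors treated reads with several matches is not given in the sources used here. A run of 4 on the X chromosome between 41931036 and 42540677 holds ZNF41, ZNF81, ZNF182 and ZNF630. It was chosen after its values were seen, and had the lowest median PDGF-BB change of the 16 runs (-0.54). ZNF81 and ZNF182 fell with PDGF-BB (-0.71 and -0.38) and with both proteins (-0.85 and -0.79), and neither ZNF41 nor ZNF630 passed. Of all genes 24.5% fell with PDGF-BB and 28.6% with both proteins. In a run of 3 on chromosome 3 (ZNF12, ZNF316 and ZNF853) 2 rose and 0 fell with PDGF-BB, where 24.3% of all genes rose. The PDGF-BB change of ZNF182 did not pass without the block (adjusted p = 0.19). In all, 62 of the 193 members with a position overlap another RefSeq gene and 41 overlap a coding one.

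The precision of a value followed its depth. In the 64 members under 2 log2 CPM the median SE of the PDGF-BB change was 0.19, and 18.8% passed, beside 24.9% of all genes in that range. In the 71 members over 4 log2 CPM the median SE was 0.06 and 56.3% passed, beside 58.6% of all genes. With S100A4 the shares were 4.69% and 11.3% of members, and 4.44% and 14.1% of all genes. Between 2 and 4 log2 CPM, 0 of 88 members and 7.86% of all genes passed with S100A4.

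Members also differed between replicate numbers. In the middle of the family, replicate number held 20.3% of a member's spread over the 12 libraries and treatment group 44.5%, where over all genes these were 40.9% and 36.9%. For 32.7% of members the part held by replicate number was the larger, where over all genes tested this was so for 51.4%. ZNF385B differed most: its means were 0.0837, 3.33 and 0.406 CPM in replicates 1, 2 and 3. It is read almost wholly from replicate 2, where the sums of fibroblast, endothelial and pericyte markers were highest. Whether its level comes with those markers was not tested. ZNF521 averaged 13.7, 24.5 and 10.9 CPM in the 3 replicates, and ZNF473, which acts in the processing of histone messenger RNA, 7.02, 3.23 and 4.48 CPM. Neither the PDGF-BB nor the S100A4 change of ZNF473 passed, and with both proteins it rose (0.33 ± 0.11, adjusted p = 0.020, and 0.66 without the block).

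**Figure D5:**
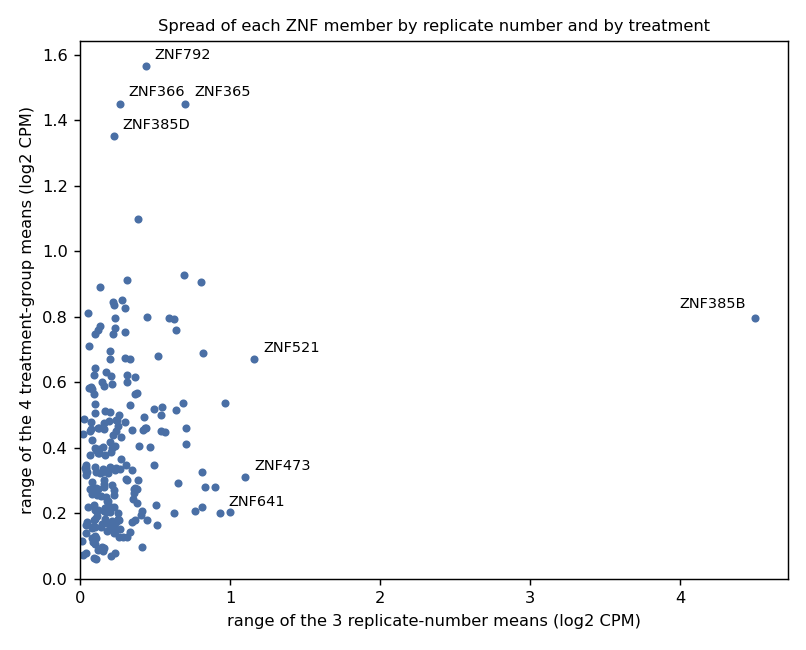
Each of the 223 ZNF members by the range of its 3 replicate-number means (horizontal axis) and of its 4 group means (vertical axis), both in log2 CPM. ZNF385B stands alone at a range of 4.5 between replicate numbers, and ZNF792, ZNF366, ZNF365 and ZNF385D have the widest ranges between groups.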

How the data were processed

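RNA sequencing counts of 12 libraries were analysed. The authors deposited whole-number read counts per Ensembl gene, not normalized, for 21153 genes. Per the submitters' processing notes, CASAVA 1.8.2, STAR 2.4, featureCounts 1.4.6 and the build Sscrofa11.1 were used; the sources used here do not state their roles, settings, annotation release or use of strand. A symbol was found for 14572 identifiers and for 10833 of the 12444 tested. Positions came from RefSeq by symbol.

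Low counts were removed with the filterByExpr function (minimum count 10, by group); TMM scaling and the two-sided quasi-likelihood test of edgeR 4.0.16 in R 4.3.3 then gave 5 comparisons. The SE is the log2 change divided by the square root of F. Replicate number was a block, since the design text gives 3 animals. Over all genes tested, deviations from group means correlated at 0.746 to 0.908 in the 18 same-numbered pairs. In the 36 other pairs they correlated at -0.676 to 0.136. Over the ZNF members alone these ranges were 0.397 to 0.76 and -0.666 to 0.295. Deviations cancel within a group, so a positive correlation of same-numbered libraries by itself pushes the other pairs towards negative values. The common biological coefficient of variation was 5.14% with the block and 27.2% without. No 2 libraries of a group were repeats of each other (chi-square per gene 22 to 159). Each p-value reflects only the variation among the libraries at hand, which may be technical.

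Named members are, in each comparison, those that passed with a mean of at least 0 log2 CPM and the same direction in all 3 pairs, the 10 largest in each direction (5 outside comparisons with control), with smallest-p members where fewer than 3 qualified, and up to 4 members of each role list. ZNF members described by position, replicate number, family, or as not having passed were chosen after their values were seen. The members and lists were chosen with earlier results of these data known. Alternatives were the fit without the block, RLE and upper-quartile scaling, no filter, a stricter filter (a mean of 5 CPM, with 1 CPM or more in 3 libraries), DESeq2 1.42.0, voom of limma 3.58.1, the compared groups alone, and leaving out each replicate number or library.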

Additional observations from a re-analysis of the deposited data

How the results depend on the processing

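Without the replicate block the numbers of members higher and lower were 21 and 11 with PDGF-BB, 0 and 0 with S100A4, 27 and 29 with both, and 0 and 0 for both against PDGF-BB. Every member that passed without the block also passed with it, in the same direction. With the stricter filter, which tests 145 of the 223 members, 3 fell with S100A4 and 45 with both, and 2 were lower for both against PDGF-BB. That last number was 3 with upper-quartile scaling, 3 with no filter, 0 with DESeq2 and 2 with the groups compared alone. Leaving out replicates or libraries gave 32 to 44 higher and 23 to 52 lower with PDGF-BB, 4 to 7 and 2 to 6 with S100A4, 35 to 55 and 38 to 70 with both, 0 to 8 and 0 to 8 for both against PDGF-BB, and 0 and 0 for the interaction. The cause of these shifts was not tested. Of the values of named members, none reversed in any setting run, but nearly all had the same direction in all 3 pairs. A reversal was therefore unlikely from the start. Without the block 23 of 75 no longer passed. Of 1125 values with a replicate or library left out, 66 no longer passed and 5 newly did. Both totals include values that did not pass in the main fit and so could not be lost. Members described in the text outside the naming rule are not among the 75. The median log2 change of members went to -0.11 with PDGF-BB and -0.14 with both under upper-quartile scaling, and to 0.02 and -0.003 with the stricter filter. The grouping of members by KRAB box was not run. Precision is limited by depth for the 64 members under 2 log2 CPM.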
